A study of Mus musculus with 12 samples.

Results

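Expression of 37 named genes of mitosis and the spindle checkpoint was followed in mouse pluripotent stem cells that lacked Lin28a, Lin28b or both. The genes were found in the deposited gene table by their symbols, ignoring case, which gave an entry for 36 of the 37 in a table of 30854 entries. The remaining gene, Nuf2, had an entry under its older name Cdca1 and is described from that entry. There were 4 groups of 3 arrays each: loss of Lin28a (line AK01), loss of Lin28b (line BK06), loss of both, called double loss (line DK05), and wild type (line wt2). The tissue label reads embryonic stem cells, whereas the design text describes iPS controls, and all cells were grown in serum with Lif. Each group is 1 line, so in all comparisons line and genotype cannot be told apart. The labels do not say whether replicates were separate cultures, so the p-values may measure only a technical spread between these samples. How the genes were inactivated and the age or sex of the source are not given in the sources used here.

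Cells enter mitosis when cyclin B with its kinase Cdk1 is activated, with help from Cdc25 phosphatases and the Polo-like and Aurora kinases. The spindle checkpoint, built from Bub and Mad proteins at kinetochores, holds the anaphase-promoting complex back until every chromosome is attached. Once Cdc20 activates that complex, securin (Pttg1) and cyclin B are degraded, separase cuts cohesin and sister chromatids part. Pluripotent stem cells divide rapidly, and most of these genes are transcribed mainly late in the cell cycle. Lin28a and Lin28b encode RNA-binding proteins that block maturation of the let-7 microRNAs, and the study asks which roles the paralogs share.

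Expression was read on Illumina mouse WG-6 BeadChips, 1 array per sample, and is given here as normalized log2 intensity. Mean raw signal lay between 325.4 and 596.7, and 9377 to 10773 genes per array were above background, that is, had a detection p under 0.01. By their array positions, Lin28a loss and wild type shared chip 1, while the Lin28b-loss and double-loss samples shared chip 2. Lin28a loss against wild type and double loss against Lin28b loss therefore lie within a chip. In the other comparisons of 2 groups, which run across the chips, the chip cannot be told apart from the genotype. Of 8 pluripotency markers all were above background on all 12 arrays. Against wild type 3 of the 8 fell in Lin28a loss and 1 fell in Lin28b loss, while 1 rose in double loss, and the interaction described below passed above 0 for 2. Zfp42 (Rex1) moved furthest: it averaged 10.19 ± 0.16 in Lin28a loss, 10.59 ± 0.12 in Lin28b loss, 12.52 ± 0.04 in double loss, against 12.30 ± 0.19 in wild type (log2 intensity, SD, n = 3 each), with an interaction of 4.03. The part of these shifts in the results on mitotic genes was not tested. Of 8 fibroblast markers, for feeder cells, none was above background on any array, and their summed raw signal was 666.6 to 776.2 in Lin28a loss, 402.5 to 421.2 in Lin28b loss, 391.8 to 502.3 in double loss, against 489.8 to 640.7 in wild type. The higher sum in Lin28a loss was that of Thy1, at 306.7 to 397.3 in Lin28a loss, 90.1 to 101.5 in Lin28b loss, 101.2 to 152.9 in double loss, against 130.6 to 235.0 in wild type. The other 7 markers summed to 359.9 to 386.7 in Lin28a loss, 309.5 to 319.7 in Lin28b loss, 290.6 to 349.4 in double loss, against 359.2 to 405.7 in wild type. Of 6 trophoblast markers, 2 were above background on all 3 arrays of Lin28a loss, 2 of Lin28b loss, 1 of double loss and 3 of wild type. Of 5 mesoderm markers only T was so, and only in wild type. Of 6 primitive endoderm markers 0 were so in any group, and of 5 neuroectoderm markers 1 was in each. The part of these differences in the results on mitotic genes was not tested. Lin28a, the targeted gene that could be measured, averaged 5.66 ± 0.08 in Lin28a loss, 7.03 ± 0.17 in Lin28b loss, 5.48 ± 0.17 in double loss and 7.97 ± 0.11 in wild type (log2 intensity, SD, n = 3 each). It fell by 2.31 ± 0.11 (SE) in Lin28a loss (limma, adjusted p = 1.38e-08), by 0.94 ± 0.11 in Lin28b loss (adjusted p = 4.31e-05) and by 2.48 ± 0.11 in double loss (adjusted p = 7.26e-09), each against wild type. Lin28b was above background on no array of any group, so its loss could not be checked.

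Of the 37 mitotic genes, 22 were above background on all 3 arrays of at least 1 group and were tested. They cover each of the 7 roles into which the genes were sorted. Among kinases and cyclins of mitotic entry these were Aurka, Ccnb1, Cdc25b and Plk1. Among checkpoint genes they were Bub1b, Bub3 and Mad2l1, and among genes of the anaphase-promoting complex and its substrates Cdc20, Fzr1 and Pttg1. All 4 genes of the chromosomal passenger complex (Aurkb, Birc5, Incenp and Cdca8) were tested, as were the centromere genes Cenpa and Cenpf. The spindle motors and microtubule binders Kif11, Kif23, Kif2c, Prc1 and Tpx2 and the topoisomerase Top2a complete the set. The tested genes passed through the group in which they are expressed, so their number is not a result. Prc1 passed only through wild type: it was above background on 1 array of Lin28a loss, 0 of Lin28b loss, 1 of double loss and 3 of wild type, although its log2 intensity was over 11 on every array. Pttg1 was above background on 3 arrays of Lin28a loss, 1 of Lin28b loss, 3 of double loss and 3 of wild type.

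The other 14 genes with an entry by symbol were not tested: Bub1, Ccna2, Ccnb2, Cdc25c, Cenpe, Espl1, Kif20a, Mki67, Ndc80, Nek2, Smc2, Smc4, Ttk and Ube2c. Not reaching the detection limit does not by itself place a gene near background, since Espl1 averaged 8.29 in Lin28a loss, 8.77 in Lin28b loss, 8.48 in double loss and 8.31 in wild type. Mki67 averaged 7.86 in Lin28a loss, 8.08 in Lin28b loss, 8.52 in double loss and 8.003 in wild type, and was likewise called above background on 0 arrays. Both are read by several probes, as are Ndc80 and Cdc25c, and Cdc25c averaged 7.45 in Lin28a loss, 7.58 in Lin28b loss, 7.52 in double loss and 7.46 in wild type. The group means of Bub1, Ccna2, Ccnb2, Cenpe, Nek2 and Smc2 lay between 4.40 and 4.655, those of Nuf2 between 4.40 and 4.44, and none of the 7 genes was above background on any array. Ttk, a checkpoint kinase, and Ube2c, the enzyme that hands ubiquitin to the anaphase-promoting complex, had group means between 4.81 and 5.34, and Ttk was above background on 1 array each of Lin28a loss and double loss. Kif20a, a kinesin of cytokinesis, was above background on 2 arrays of Lin28a loss, 0 of Lin28b loss, 1 of double loss and 1 of wild type. The Smc4 entry was above background on at most 1 array of a group, but a further entry of the gene under an older name was bright enough on all arrays and averaged 7.95 in Lin28a loss, 7.58 in Lin28b loss, 7.72 in double loss and 7.73 in wild type.

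**Figure D1:**
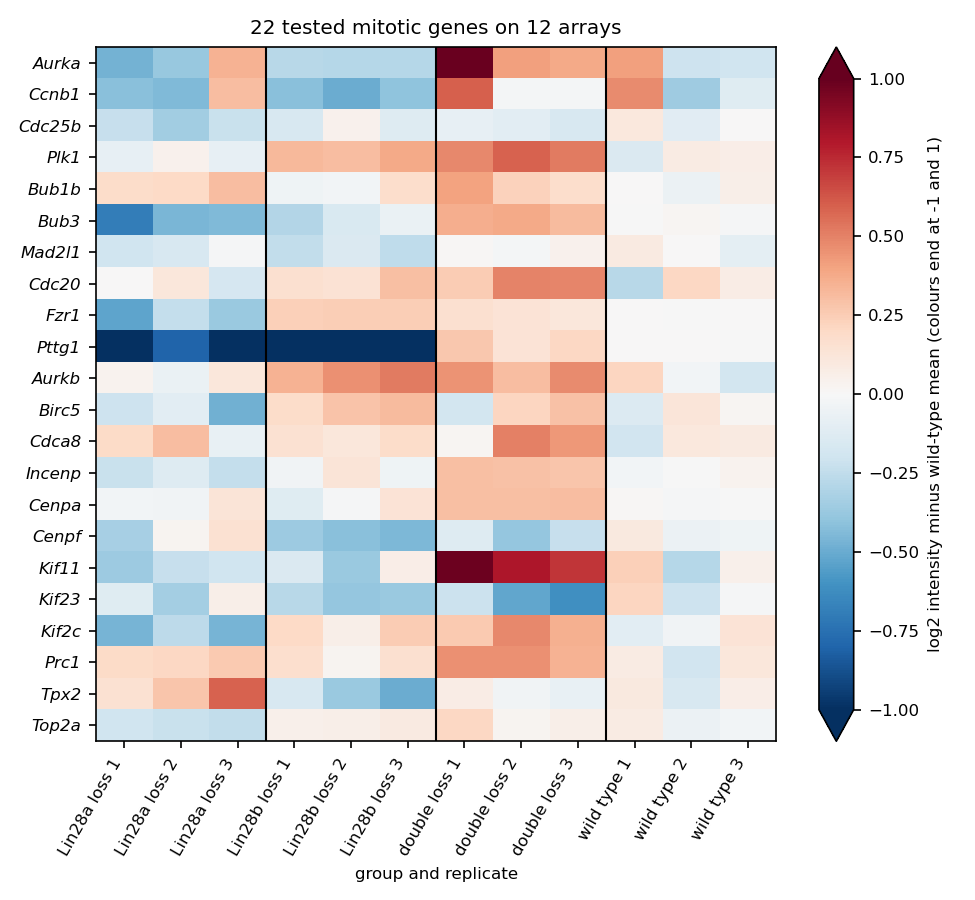
Log2 intensity of the 22 tested mitotic genes (rows, grouped by role) on each of the 12 arrays (columns), as the difference from the wild-type mean of that gene. Colours run from -1 (blue) to 1 (red) and values beyond them share the end colour; Pttg1 lies below wild type on all 6 arrays of the single losses, and Kif11 above the wild-type mean on all 3 arrays of double loss.

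Many genes of late cell cycle carry 2 short promoter elements, the cell cycle genes homology region (CHR), read by the DREAM and B-Myb complexes, and CCAAT, read by NF-Y. RefSeq promoters of 300 bases, 250 before to 50 after each annotated start (GRCm38.p6), were at hand for 30 of the 37 genes, as 32 promoters. Promoters of Aurkb, Ccna2, Cdc25c, Incenp, Kif20a, Smc4 and Tpx2 were not used here. The CHR letters TTTGAA or TTCGAA, on either strand, stood in 24 of the 32 promoters (75%), against 6316 of all 32851 promoters of that length (19.2%). The letters CCAAT, on either strand, stood in 26 of the 32 (81.2%), against 37.4% of all promoters, and both stood in 22 of the 32 (68.8%), against 7.52% of all. A CHR match and a CCAAT match can share at most 1 base. The shares were 76.2% for CHR letters in promoters of the tested genes and 72.7% in those of the genes not tested. A match is a description of the letters and not of a bound site.

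**Figure D2:**
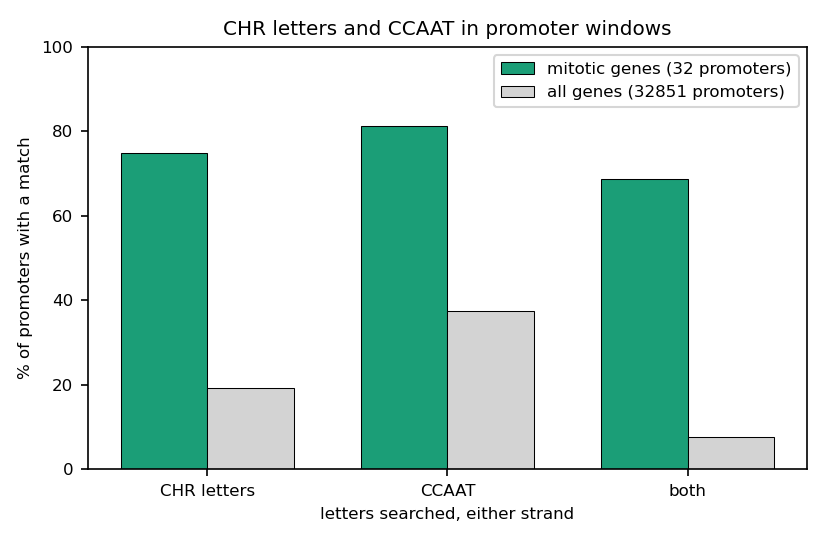
Share of promoter windows with at least 1 match, in percent, for the mitotic genes (32 promoters, left bars) and for all genes in the table (32851 promoters, right bars). CHR letters stood in 75% of the mitotic promoters and in 19.2% of all.

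Of the 37 named genes, the 4 with the largest interaction described below are Pttg1, Kif11, Bub3 and Aurka, and their promoters are shown 5′ to 3′ on the strand of the gene, with CHR letters and CCAAT in capitals, because 3 of the 4 hold both elements and Pttg1 holds neither. Kif11 has CCAAT on the opposite strand 45 bases upstream of the start and CHR letters 19 bases upstream. Bub3 has CCAAT 74 and 32 bases upstream of the start shown, with CHR letters 43 bases upstream. From a further annotated start, not shown, the same CCAAT matches lie 198 and 156 bases upstream and the CHR letters 167. Aurka has CCAAT 51 and 19 bases upstream, and its CHR letters lie after the start.
Pttg1, chr11:43425932-43426231, minus strand: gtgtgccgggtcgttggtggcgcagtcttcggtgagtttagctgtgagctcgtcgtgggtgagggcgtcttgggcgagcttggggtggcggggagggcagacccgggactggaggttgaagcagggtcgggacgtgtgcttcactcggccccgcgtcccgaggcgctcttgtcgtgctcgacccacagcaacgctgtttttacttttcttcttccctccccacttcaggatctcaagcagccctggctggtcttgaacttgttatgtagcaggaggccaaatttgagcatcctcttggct
Kif11, chr19:37376132-37376431, plus strand: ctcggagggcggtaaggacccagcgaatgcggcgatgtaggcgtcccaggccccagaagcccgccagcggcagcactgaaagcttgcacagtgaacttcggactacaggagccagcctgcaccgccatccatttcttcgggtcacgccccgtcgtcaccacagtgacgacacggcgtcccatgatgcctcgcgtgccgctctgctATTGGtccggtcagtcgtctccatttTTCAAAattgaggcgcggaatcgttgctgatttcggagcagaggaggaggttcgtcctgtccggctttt
Bub3, chr7:131560120-131560419, plus strand: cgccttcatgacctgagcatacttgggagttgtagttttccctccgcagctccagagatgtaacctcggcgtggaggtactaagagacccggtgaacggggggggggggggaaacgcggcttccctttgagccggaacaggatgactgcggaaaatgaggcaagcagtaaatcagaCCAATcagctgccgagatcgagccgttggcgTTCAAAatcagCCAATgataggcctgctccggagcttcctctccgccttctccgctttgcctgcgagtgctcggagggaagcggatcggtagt
Aurka, chr2:172370521-172370820, minus strand: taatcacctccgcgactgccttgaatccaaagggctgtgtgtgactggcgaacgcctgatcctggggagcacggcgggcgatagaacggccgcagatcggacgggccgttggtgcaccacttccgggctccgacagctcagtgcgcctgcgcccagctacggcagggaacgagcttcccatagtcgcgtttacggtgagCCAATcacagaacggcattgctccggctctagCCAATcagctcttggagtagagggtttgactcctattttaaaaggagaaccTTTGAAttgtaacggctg
The absence of a match in the Pttg1 window says only that these letters are not in it.

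The first comparison, within chip 1, asks what changes when Lin28a is lost while Lin28b is kept. The mitotic genes shifted little as a group, and those that passed the test were lower. Of the 22 tested genes, 0 rose and 6 fell, against 18.3% of all 9920 tested genes that rose and 18.4% that fell. The share that changed, 27.3%, was below the 36.7% of all tested genes. Their median log2 fold change was -0.15, beside -0.03 for all tested genes. In bulk RNA, fewer cells in mitosis and less of these RNAs per cell cannot be told apart, here or in any comparison that follows.

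Securin, the inhibitor of separase that must be destroyed before chromatids part, changed most. Pttg1 had 6.63, 6.96 and 6.61 in Lin28a loss, against 7.76, 7.76 and 7.76 in wild type (log2 intensity). All arrays of Lin28a loss lay below all wild-type arrays, and Pttg1 fell by 1.03 ± 0.17 (SE, limma, adjusted p = 0.000405). Bub3, which carries checkpoint kinases to kinetochores, had 6.54, 6.78 and 6.79 in Lin28a loss, against 7.23, 7.25 and 7.22 in wild type. The groups did not overlap, and Bub3 fell by 0.53 ± 0.09 (adjusted p = 0.000698). Its 2 fellow checkpoint genes did not pass the test: the difference was 0.23 ± 0.09 for Bub1b (adjusted p = 0.0725) and -0.12 ± 0.09 for Mad2l1 (adjusted p = 0.288).

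Kif2c, a kinesin that shortens microtubules at kinetochores, had 10.06, 10.26 and 10.06 in Lin28a loss, against 10.42, 10.49 and 10.67 in wild type. It fell by 0.40 ± 0.10 with no overlap (adjusted p = 0.00859). Fzr1, also called Cdh1, the activator of the anaphase-promoting complex in late mitosis and in the next growth phase, had 10.25, 10.54 and 10.41 in Lin28a loss, against 10.78, 10.78 and 10.79 in wild type. It fell by 0.38 ± 0.08 (adjusted p = 0.00361), again without overlap. The other falls were smaller. Cdc25b, a phosphatase that activates cyclin-dependent kinases, had 5.56, 5.45 and 5.57 in Lin28a loss, against 5.90, 5.68 and 5.80 in wild type and fell by 0.27 ± 0.09 (adjusted p = 0.0348). Top2a, the topoisomerase that untangles sister chromatids, had 10.30, 10.29 and 10.26 in Lin28a loss, against 10.59, 10.45 and 10.48 in wild type and fell by 0.22 ± 0.08 (adjusted p = 0.0465). Neither gene's groups overlapped, but the call of Top2a was lost without any 1 array of either group, any Lin28b-loss array or double-loss replicate 2 or 3, and that of Cdc25b without wild-type replicate 1 or 3 or Lin28a-loss replicate 1 or 2. With arrays scaled to a common median in place of quantile normalization, 1 of the 6 calls remained, that of Pttg1. The gene with the largest positive value was Tpx2, the activator of Aurora A on the spindle, which had 8.97, 9.10 and 9.40 in Lin28a loss, against 8.91, 8.66 and 8.88 in wild type. These groups did not overlap, and the difference of 0.34 ± 0.13 did not pass the test (adjusted p = 0.051).

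Loss of Lin28b was compared with wild type across the chips, in cells where Lin28a itself was 0.94 lower than in wild type. Here 3 of the 22 genes rose and 2 fell, against 18.9% of all genes that rose and 17.2% that fell, so the mitotic genes were called no more often than others (22.7% of them). Their median was 0.01, beside 0 for all tested genes. The change of Pttg1 was much larger than that of any other mitotic gene. It had 5.26, 5.17 and 5.92 in Lin28b loss, against 7.76, 7.76 and 7.76 in wild type, and fell by 2.31 ± 0.17 (adjusted p = 4.76e-07). On 2 of the 3 Lin28b-loss arrays Pttg1 was not above background.

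The rises in Lin28b loss were those of 2 mitotic kinases and of Fzr1. Aurkb, the kinase of the chromosomal passenger complex that corrects faulty attachments, had 9.98, 10.08 and 10.15 in Lin28b loss, against 9.84, 9.60 and 9.44 in wild type. The groups did not overlap, and Aurkb rose by 0.44 ± 0.11 (adjusted p = 0.00634). Plk1, the Polo-like kinase of mitotic entry, had 11.83, 11.82 and 11.89 in Lin28b loss, against 11.37, 11.59 and 11.58 in wild type, and rose by 0.34 ± 0.09 (adjusted p = 0.00924). Fzr1 had 11.02, 11.03 and 11.03 in Lin28b loss, against 10.78, 10.78 and 10.79 in wild type. It rose by 0.24 ± 0.08 (adjusted p = 0.0389), a call that was lost without any 1 array of either group or double-loss replicate 2 or 3, and that turned to -0.07 under median scaling. Cenpf, a large kinetochore and nuclear matrix protein, had 6.52, 6.47 and 6.44 in Lin28b loss, against 6.98, 6.83 and 6.84 in wild type. It fell by 0.41 ± 0.12 (adjusted p = 0.0182), which did not pass without replicate 1 of wild type (-0.36) or replicate 2 (-0.40) or 3 (-0.39) of Lin28b loss. Leaving out any 1 of these 3 arrays, 3 of the 22 genes were called in place of 5. Under median scaling 1 call remained, that of Pttg1.

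**Figure D3:**
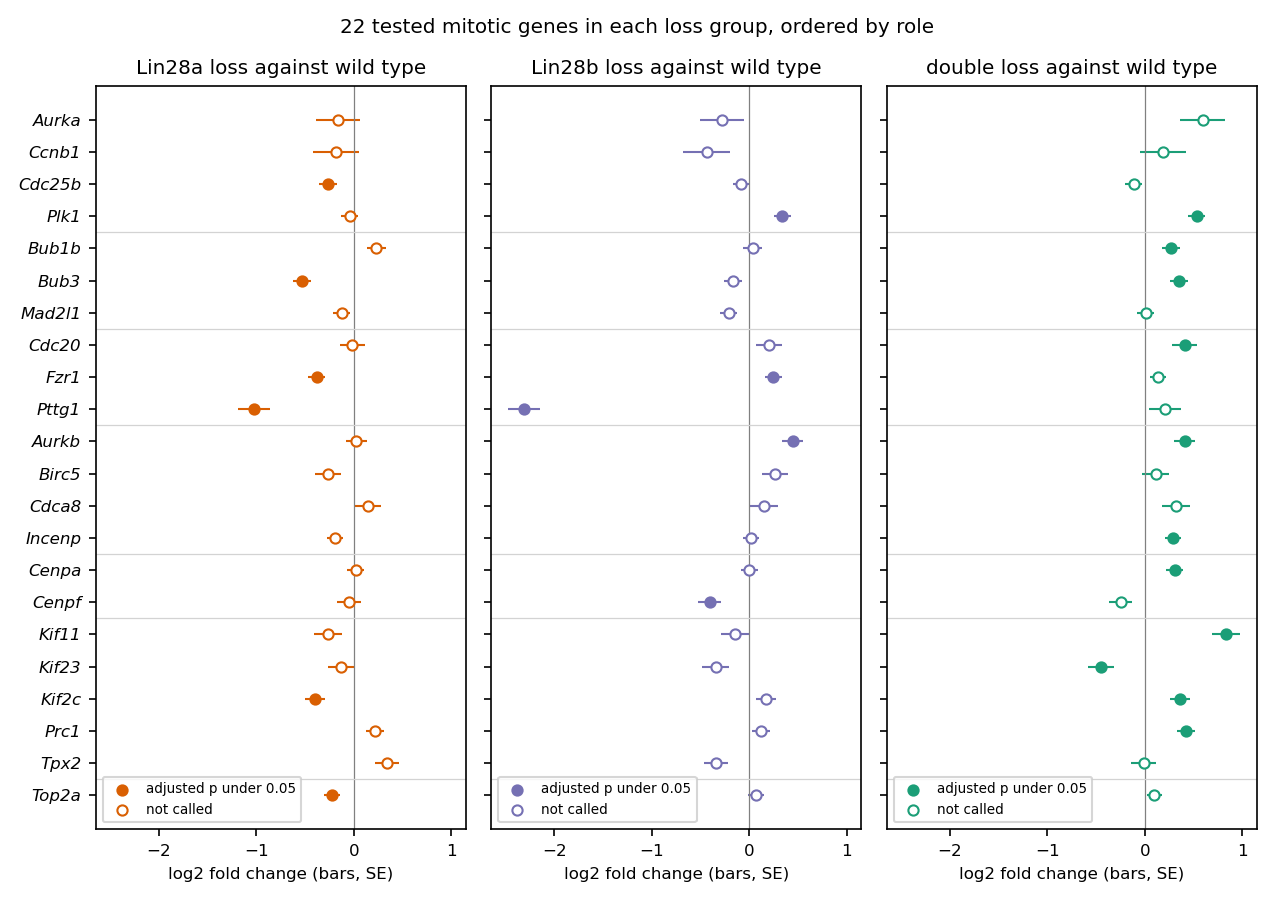
Log2 fold change with its SE for the 22 tested mitotic genes in Lin28a loss, Lin28b loss and double loss, each against wild type, ordered by role (grey lines part the roles). Filled points passed an adjusted p of 0.05: 0 rose and 6 fell in Lin28a loss, 3 rose and 2 fell in Lin28b loss, and 10 rose and 1 fell in double loss.

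In cells without either paralog, nearly all mitotic genes that passed the test were higher. In double loss against wild type, across the chips, 10 of the 22 mitotic genes rose and 1 fell, against 18% of all tested genes that rose and 19.1% that fell. Their median was 0.28, beside -0.01 for all tested genes, and 18 of the 22 lay above 0. The rises spanned 6 of the 7 roles: Plk1, the checkpoint genes Bub1b and Bub3, Cdc20, the passenger genes Aurkb and Incenp, the centromeric histone Cenpa, and the spindle genes Kif11, Kif2c and Prc1.

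Kif11, the plus-end motor that pushes spindle poles apart, had 9.96, 9.79 and 9.70 in double loss, against 9.22, 8.69 and 9.03 in wild type. Every array of double loss was above every wild-type array, and Kif11 rose by 0.84 ± 0.14 (adjusted p = 0.000569). A further entry of the gene, under the older name Knsl1, was above background on no array. Plk1 had 11.99, 12.10 and 12.03 in double loss, against 11.37, 11.59 and 11.58 in wild type, and rose by 0.53 ± 0.09 without overlap (adjusted p = 0.000446). Prc1, which bundles the microtubules of the central spindle, had 11.93, 11.93 and 11.82 in double loss, against 11.55, 11.28 and 11.58 in wild type. The groups did not overlap, and Prc1 rose by 0.42 ± 0.10 (adjusted p = 0.00406).

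Aurkb had 10.08, 9.94 and 10.10 in double loss, against 9.84, 9.60 and 9.44 in wild type, and rose by 0.41 ± 0.11 (adjusted p = 0.00949). Incenp, the scaffold that activates Aurkb, had 10.62, 10.62 and 10.60 in double loss, against 10.29, 10.32 and 10.36 in wild type, and rose by 0.29 ± 0.08 (adjusted p = 0.0123). Both passenger genes were separated from wild type on every array. Cenpa, the histone that marks the centromere, had 13.79, 13.79 and 13.79 in double loss, against 13.49, 13.47 and 13.48 in wild type, and rose by 0.31 ± 0.09 (adjusted p = 0.015). Bub3 had 7.59, 7.61 and 7.55 in double loss, against 7.23, 7.25 and 7.22 in wild type, and rose by 0.35 ± 0.09 (adjusted p = 0.00942). For Cenpa and Bub3 the arrays within each group lay close together and the groups were apart.

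Kif2c rose by 0.36 ± 0.10 (adjusted p = 0.0133), with 10.79, 11.01 and 10.88 in double loss, against 10.42, 10.49 and 10.67 in wild type. Cdc20, the activator that opens anaphase, had 11.22, 11.46 and 11.45 in double loss, against 10.68, 11.17 and 11.04 in wild type, and rose by 0.41 ± 0.13 (adjusted p = 0.0242). Its call was lost without wild-type replicate 1, where the value was 0.27, or without double-loss replicate 2 or 3. Bub1b, the checkpoint kinase BubR1 that inhibits Cdc20, had 11.04, 10.86 and 10.81 in double loss, against 10.64, 10.58 and 10.69 in wild type. It rose by 0.27 ± 0.09 (adjusted p = 0.0402), and did not pass without any 1 of the wild-type arrays, replicate 1 or 2 of double loss, or replicate 2 of either single loss.

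The one fall was that of Kif23, a kinesin of the central spindle that is needed for cytokinesis. Kif23 had 9.58, 9.27 and 9.18 in double loss, against 10.004, 9.59 and 9.78 in wild type, and fell by 0.45 ± 0.14 (adjusted p = 0.0206). The groups were separate by a narrow margin, and the call was lost without replicate 1 of wild type (-0.34) or replicate 2 (-0.41) or 3 (-0.37) of double loss. A further entry of the gene, under the older name Knsl5, went the other way, with 8.57, 8.87 and 9.11 in double loss, against 8.53, 8.89 and 8.88 in wild type. The direction for Kif23 is therefore uncertain. Without double-loss replicate 2, 7 of the 22 genes rose and 0 fell in double loss against wild type. Under median scaling 0 of the calls remained, and the values of the 10 genes that had risen stayed above 0.

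Pttg1, the gene that fell furthest in each single loss, had 8.03, 7.90 and 7.97 in double loss, against 7.76, 7.76 and 7.76 in wild type. The double-loss arrays were the higher ones, and the difference of 0.20 ± 0.17 did not pass the test (adjusted p = 0.368). Aurka, the Aurora kinase of centrosomes and spindle poles, had 12.16, 11.59 and 11.55 in double loss, against 11.59, 10.97 and 10.97 in wild type. Its groups overlapped, and the difference of 0.59 ± 0.23 did not pass (adjusted p = 0.0588). In Aurka the highest array of Lin28a loss, double loss and wild type was the array of highest mean raw signal of its group, replicate 3, 1 and 1 of those groups. Without these 3 arrays the Aurka difference was 0.61 ± 0.075 (limma, adjusted p = 8.28e-05), against 0.59 ± 0.23 with all arrays. Leaving out the highest Aurka array of each compared group narrows the spread by construction, so that p-value is not read as a call. Over the 22 genes, those arrays held the highest value of their group in 13, 12 and 12 genes, and over all tested genes in 36.8%, 41.2% and 40.9%. Replicate 3 of Lin28b loss, the array of highest mean raw signal there, likewise held the highest value in 13 of the 22 (36.3% of all tested genes), and it was not among the arrays left out. The part of the 3 arrays in the other results was measured by leaving them out.

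**Figure D4:**
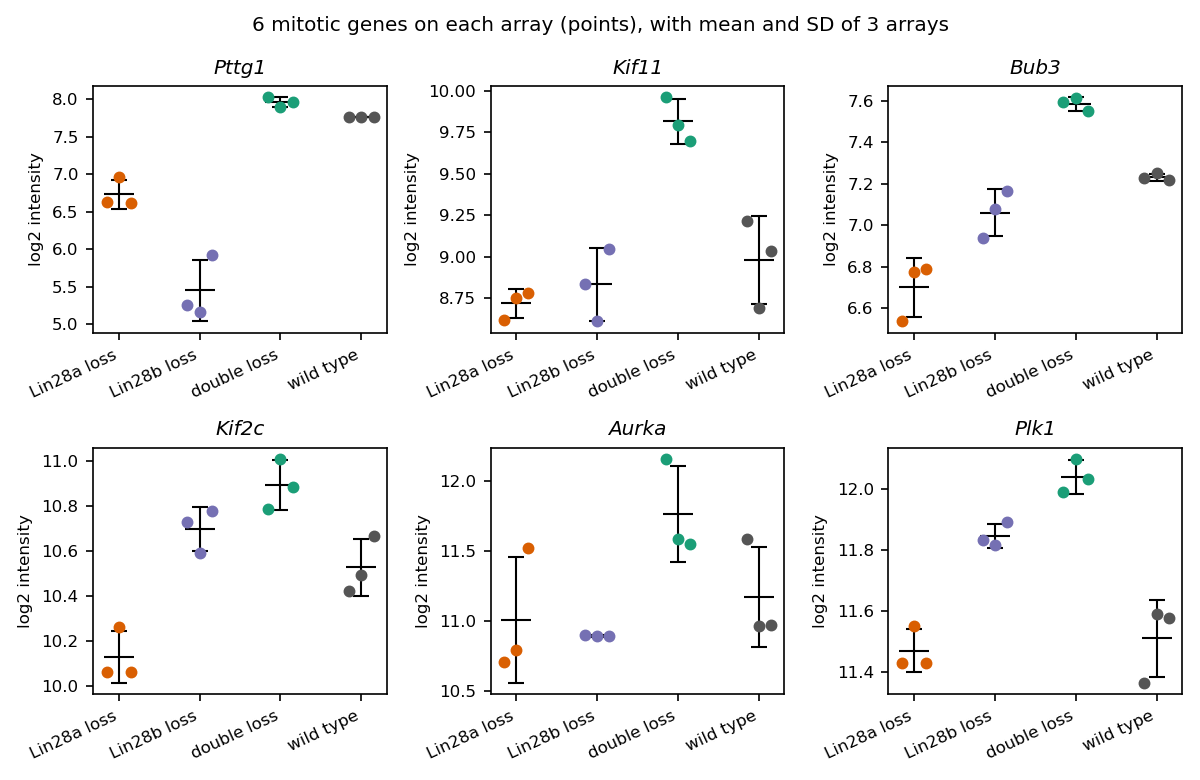
Log2 intensity of 6 mitotic genes on each array (points) in Lin28a loss, Lin28b loss, double loss and wild type, with the mean and SD of 3 arrays (black); the axes do not start at 0. Pttg1 lay between 5.17 and 6.96 in the single losses and between 7.76 and 8.03 in double loss and wild type.

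Lin28a loss in cells that already lack Lin28b is measured within chip 2, by double loss against Lin28b loss. Of the 22 genes, 7 rose and 0 fell, against 16.9% of all genes that rose and 19.7% that fell. The median was 0.22, beside -0.01 for all tested genes. Pttg1 had 8.03, 7.90 and 7.97 in double loss, against 5.26, 5.17 and 5.92 in Lin28b loss, and rose by 2.51 ± 0.17 (adjusted p = 2.8e-07). As it was above background on 1 of the 3 Lin28b-loss arrays, that difference is set against a group mostly at background. Kif11 had 9.96, 9.79 and 9.70 in double loss, against 8.84, 8.61 and 9.05 in Lin28b loss, and rose by 0.98 ± 0.14 (adjusted p = 0.000177). For both genes the groups were far apart. Aurka had 12.16, 11.59 and 11.55 in double loss, against 10.90, 10.89 and 10.89 in Lin28b loss, and rose by 0.87 ± 0.23 (adjusted p = 0.00996). Bub3 had 7.59, 7.61 and 7.55 in double loss, against 6.94, 7.08 and 7.17 in Lin28b loss, and rose by 0.52 ± 0.09 (adjusted p = 0.00081).

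The remaining rises within chip 2 were near 0.3: Cenpa by 0.31 ± 0.09 (adjusted p = 0.016), Prc1 by 0.30 ± 0.10 (adjusted p = 0.0263) and Incenp by 0.27 ± 0.08 (adjusted p = 0.0175). The call of Cenpa was lost without Lin28b-loss replicate 1 or 2, and that of Prc1, which was above background on 1 array of double loss and 0 of Lin28b loss, without Lin28b-loss replicate 2 or double-loss replicate 1 or 2. The cyclin Ccnb1, the partner of Cdk1, had 12.05, 11.44 and 11.44 in double loss, against 11.05, 10.96 and 11.06 in Lin28b loss. Its groups were apart, and the difference of 0.62 ± 0.24 did not pass (adjusted p = 0.0582). Without the brightest array of Lin28a loss, double loss and wild type, 14 genes rose and 0 fell. Among them were Ccnb1, by 0.43 ± 0.08 (adjusted p = 0.00157), Cdca8, the passenger subunit also called borealin, by 0.32 ± 0.07 (adjusted p = 0.0036), and Tpx2, by 0.29 ± 0.11 (adjusted p = 0.0437). Kif20a was tested as well in that setting, and the share of all genes called in it is not given here. Under median scaling the calls of Pttg1 and Kif11 remained.

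Against Lin28a loss, across the chips, double loss had 13 mitotic genes higher and 1 lower, beside 26.4% of all genes higher and 27.5% lower. Their median was 0.37, beside 0 for all. Pttg1 had 8.03, 7.90 and 7.97 in double loss, against 6.63, 6.96 and 6.61 in Lin28a loss, a difference of 1.23 ± 0.17 (adjusted p = 4.92e-05). Kif11 had 9.96, 9.79 and 9.70 in double loss, against 8.62, 8.75 and 8.78 in Lin28a loss, a difference of 1.10 ± 0.14 (adjusted p = 3.52e-05). Bub3 was 0.88 ± 0.09 higher (adjusted p = 5.81e-06), Kif2c 0.76 ± 0.10 (adjusted p = 4.54e-05) and Plk1 0.57 ± 0.09 (adjusted p = 0.000139). These 5 genes were picked from the largest called changes and did not overlap between the groups. The share of all tested genes without overlap is not given here, so this is not read as a result. Aurka was 0.76 ± 0.23 higher (adjusted p = 0.0135) with 1 Lin28a-loss array, at 11.52, close to the lowest of double loss, and this call was lost without Lin28a-loss replicate 1 or 2 or double-loss replicate 1. Tpx2 alone was lower, by -0.35 ± 0.13 (adjusted p = 0.0316). The other genes that were higher were Aurkb, Birc5, Cdc20, Cenpa, Fzr1, Incenp and Top2a, by 0.29 to 0.52. Under median scaling 4 of these calls remained, those of Pttg1, Kif11, Kif2c and Plk1.

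The single losses differed from each other as well. In Lin28a loss against Lin28b loss, across the chips, 3 mitotic genes were higher and 8 lower, beside 25.4% of all genes higher and 28.1% lower, with a median of -0.06, beside -0.02 for all. Pttg1 was 1.28 ± 0.17 higher in Lin28a loss (adjusted p = 3.44e-05), Tpx2 0.68 ± 0.13 higher (adjusted p = 0.000597) and Cenpf 0.36 ± 0.12 higher (adjusted p = 0.0236). Tpx2 had 8.97, 9.10 and 9.40 in Lin28a loss, against 8.66, 8.44 and 8.32 in Lin28b loss, with no overlap. Fzr1 was lower in Lin28a loss by -0.63 ± 0.08 (adjusted p = 5.04e-05), Kif2c by -0.57 ± 0.10 (adjusted p = 0.000484) and Aurkb by -0.42 ± 0.11 (adjusted p = 0.00575). Birc5, survivin of the passenger complex, had 11.57, 11.68 and 11.30 in Lin28a loss, against 11.96, 12.07 and 12.10 in Lin28b loss, and was lower by -0.53 ± 0.14 (adjusted p = 0.00534). Bub3, Incenp, Plk1 and Top2a were the other lower genes, by -0.38 to -0.21. Under median scaling the calls of Pttg1 and Tpx2 remained, and the value of Incenp turned to 0.07.

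When the effect of Lin28a loss was averaged over both chips, with the chip as a block, 3 genes rose and 1 fell, beside 10.6% of all genes that rose and 11.5% that fell. These were Tpx2, higher by 0.34 ± 0.09 (adjusted p = 0.0218), Prc1, by 0.26 ± 0.07 (adjusted p = 0.0229), Bub1b, by 0.23 ± 0.07 (adjusted p = 0.0334), and Fzr1, lower by -0.24 ± 0.08 (adjusted p = 0.0353). Pttg1, whose values on the chips had opposite signs, averaged 0.74 ± 0.52 (adjusted p = 0.344). The 4 calls were sensitive: 0 genes were called without wild-type replicate 2 and 0 under median scaling, while array weights gave 15. The count over all tested genes with array weights is not given here.

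The interaction measures what that average leaves out, which is the effect of Lin28a loss in cells without Lin28b, less its effect in cells with Lin28b. Both effects lie within a chip, so an additive chip difference cancels. For 7 of the 22 mitotic genes the interaction was above 0 and passed the test, and for 0 it passed below 0, beside 17.5% of all tested genes above and 20.3% below. The median over the 22 genes was 0.25, beside 0 for all tested genes, and 20 of the 22 values were above 0. The 7 genes were Pttg1, Kif11, Bub3, Aurka, Kif2c, Incenp and Mad2l1.

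Pttg1 led, with an interaction of 3.54 ± 0.23 (adjusted p = 2.97e-07): 2.51 within chip 2 and -1.03 within chip 1. The first of these includes the Lin28b-loss group, in which 1 of 3 arrays was above background. Its interaction passed under each alternative in which the gene was tested, median scaling included (3.45), and was not tested where detection on all 12 arrays was asked for. Kif11 had an interaction of 1.25 ± 0.20 (adjusted p = 0.000413), from 0.98 within chip 2 and -0.26 within chip 1. For Bub3 it was 1.05 ± 0.13 (adjusted p = 5.61e-05), from 0.52 and -0.53. Both genes thus had effects of opposite sign. For Bub3 each of the effects passed the test, and for Kif11 only the one within chip 2 did.

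Aurka had an interaction of 1.04 ± 0.32 (adjusted p = 0.023), which did not pass without Lin28a-loss replicate 1 (0.88) or 2 (0.93). Kif2c had 0.59 ± 0.14 (adjusted p = 0.00619) and Incenp 0.47 ± 0.11 (adjusted p = 0.00583). Mad2l1, the checkpoint protein that binds Cdc20, had 10.86, 10.90 and 11.05 in Lin28a loss, 10.82, 10.92 and 10.81 in Lin28b loss, 11.07, 11.04 and 11.10 in double loss, against 11.16, 11.07 and 10.96 in wild type. Its interaction of 0.35 ± 0.12 passed (adjusted p = 0.0402), while none of its differences between 2 groups did. Without the 3 brightest arrays 11 genes passed above 0 and 0 below, the 7 named and Ccnb1, Cdc20, Cenpa and Plk1. The share of all genes that passed in that setting, which also tested Kif20a, is not given here. Under median scaling the calls of Pttg1, Kif11 and Kif2c remained, and all 22 values lay above the median of all tested genes. Ccnb1 and Cdca8 passed in 0 of the 8 comparisons with all 12 arrays.

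**Figure D5:**
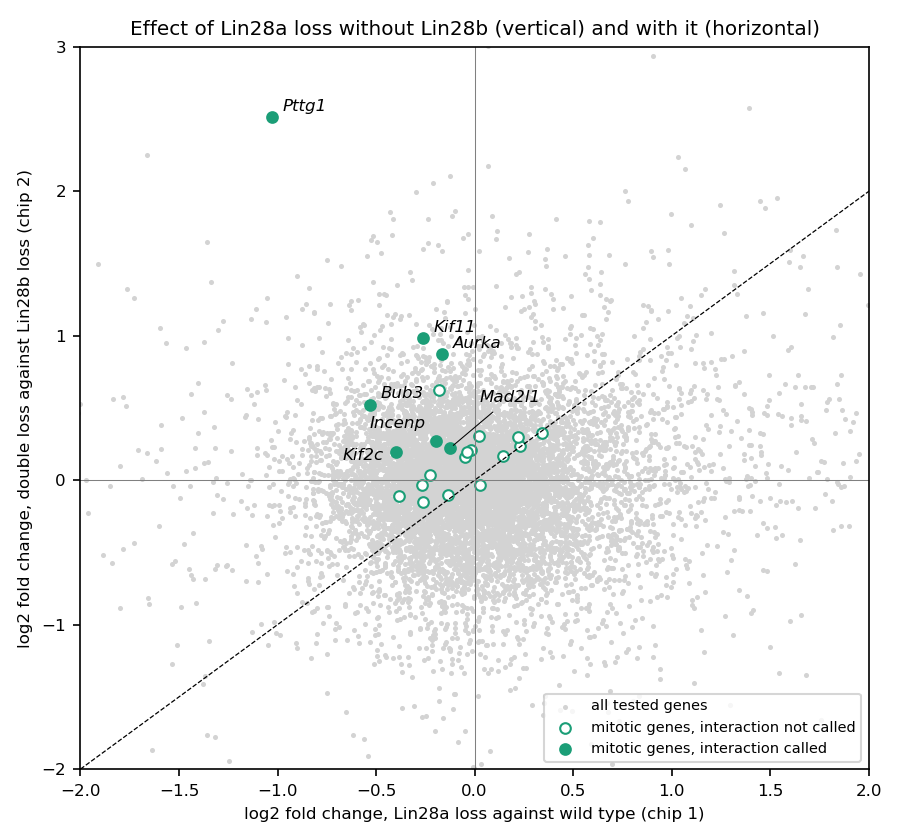
Log2 fold change of double loss against Lin28b loss (vertical, chip 2) and of Lin28a loss against wild type (horizontal, chip 1) for all tested genes (grey) and the 22 mitotic genes (green; filled where the interaction passed). On the dashed line the effects are equal; 20 of the 22 mitotic genes lie above it, Pttg1 furthest, and 97 grey points fall outside the axes.

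Median scaling, which moves all genes of an array by 1 amount, also shifted the median of all tested genes, by -0.23 in Lin28b loss and -0.14 in double loss against wild type, by -0.15 in double loss against Lin28a loss and by 0.24 in Lin28a loss against Lin28b loss. Among all genes called, 70.1% were then higher in Lin28a loss against wild type, where quantile normalization gave 49.8%. The share was 21.1% in place of 52.4% in Lin28b loss against wild type, 25.7% in place of 48.4% in double loss against wild type, 25.3% in place of 49% in double loss against Lin28a loss, 79.4% in place of 47.5% in Lin28a loss against Lin28b loss and 69.8% in place of 48% with the chip as a block. Against wild type and relative to the median of all tested genes, the mitotic genes had a median of -0.17 with Lin28a loss, -0.03 with Lin28b loss and 0.32 with double loss under median scaling, beside -0.12, 0.01 and 0.29 for the same comparisons under quantile normalization. Relative to that median their interaction was 0.43 and 0.25 under those scalings. The order of the groups was thus the same under both, and 18 of the 22 genes lay above the median of all genes in double loss against wild type under either.

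Further genes of mitosis were taken from a list of 116 genes in 5 roles, of which 76 were tested. Against wild type, 7 rose and 14 fell with loss of Lin28a (median -0.04). With loss of Lin28b, 14 rose and 6 fell (median -0.04), and 12 rose and 4 fell with loss of both (median 0.15). In double loss against Lin28b loss 15 rose and 5 fell, in double loss against Lin28a loss 23 were higher and 10 lower, and in Lin28a loss against Lin28b loss 11 were higher and 23 lower. With the chip as a block 3 were higher and 5 lower. The interaction passed above 0 for 18 and below 0 for 6 of the 76 genes, with a median of 0.20. The share called was below that of all tested genes in each comparison. Against wild type it was 27.6% with loss of Lin28a (36.7% of all genes), 26.3% with loss of Lin28b (36.1%) and 21.1% with loss of both (37.1%). It was 26.3% in double loss against Lin28b loss (36.6% of all), 43.4% in double loss against Lin28a loss (54%) and 44.7% between the single losses (53.5%). In the fit blocked by chip it was 10.5% (22.1%) and for the interaction 31.6% (37.8%).

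Dlgap5, a spindle protein that stabilises microtubules near chromosomes, had 9.31, 9.27 and 8.98 in Lin28a loss, 6.91, 6.82 and 7.01 in Lin28b loss, 8.16, 8.58 and 8.64 in double loss, against 8.29, 8.23 and 8.32 in wild type. It rose by 0.91 ± 0.13 in Lin28a loss (adjusted p = 0.000169), fell by 1.37 ± 0.13 in Lin28b loss (adjusted p = 5.85e-06) and was 1.55 ± 0.13 higher in double loss than in Lin28b loss (adjusted p = 2.22e-06). Like Pttg1 it was lowest in Lin28b loss, and unlike Pttg1 it was highest in Lin28a loss. Haus4, a subunit of augmin, which branches spindle microtubules, fell by 1.39 ± 0.15 in Lin28b loss (adjusted p = 1.72e-05) and was 1.19 ± 0.15 higher in double loss than in Lin28b loss (adjusted p = 6.59e-05). Cep55, a midbody protein of the last step of cytokinesis, had 7.42, 7.54 and 7.45 in Lin28a loss, 7.90, 7.88 and 7.88 in Lin28b loss, 8.69, 8.68 and 8.73 in double loss, against 7.73, 7.70 and 7.79 in wild type. It rose by 0.96 ± 0.08 in double loss (adjusted p = 9.34e-07), and its interaction was 1.09 ± 0.11 (adjusted p = 7.91e-06).

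Cks1b, a small subunit of cyclin-dependent kinases, averaged 6.43 in double loss, where all 3 arrays were above background, against 5.31 in wild type, where 0 were. It rose by 1.12 ± 0.11 in double loss (adjusted p = 5.14e-06), or 2.17-fold. That is an estimate and not a lower bound, set against a group not above background on any array. Cks1b was tested only through Lin28b loss and double loss, the groups in which it was high, so its rise is not independent of the filter. Cep192, a centrosome scaffold, fell in double loss by 0.71 ± 0.15 (adjusted p = 0.00279), and Wapl, which releases cohesin, by 0.62 ± 0.16 (adjusted p = 0.00888). In Lin28b loss the Cdk1-inhibiting kinase Pkmyt1, above background on 2 of the 3 wild-type arrays, rose by 0.79 ± 0.11 (adjusted p = 1e-04) and the centriole protein Sass6 by 0.68 ± 0.11 (adjusted p = 0.000462). In Lin28a loss 2 subunits of the anaphase-promoting complex went opposite ways, Cdc16 up by 0.76 ± 0.09 (adjusted p = 3.46e-05) and Anapc2 down by -0.72 ± 0.12 (adjusted p = 0.000459), while the augmin subunit Haus8 rose by 0.83 ± 0.11 (adjusted p = 8.68e-05). The condensin subunit Ncaph2 was lower in Lin28a loss than in Lin28b loss by -1.24 ± 0.14 (adjusted p = 9.8e-06). Lin37, a subunit of the DREAM complex, averaged 5.06 in Lin28a loss, 5.27 in Lin28b loss, 6.04 in double loss, against 5.58 in wild type. Its interaction passed, but Lin37 was above background on 1 array of Lin28a loss, 0 of Lin28b loss, 3 of double loss and 1 of wild type. It was thus tested only through double loss, the group in which it was highest, and no size is given for it. In the fit blocked by chip the largest was Dlgap5 again, at 1.23 ± 0.13 (adjusted p = 6.59e-05), followed by Haus4 at 0.72 ± 0.17 (adjusted p = 0.0111) and the anaphase-promoting complex subunit Anapc16 at 0.62 ± 0.07 (adjusted p = 0.000153).

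Of the 14 mitotic genes that did not reach the detection limit, 4 passed in at least 1 comparison when all genes were fitted with no such limit (Smc4 was then fitted by its brighter entry). The share of all genes called in that fit is not given here, so their number is not a result. Ndc80, the outer kinetochore protein that holds microtubules, had 7.83, 8.01 and 8.14 in Lin28a loss, 8.07, 8.13 and 8.11 in Lin28b loss, 8.60, 8.44 and 8.31 in double loss, against 8.59, 8.45 and 8.34 in wild type. Its arrays were lower in both single losses than in the other groups, with changes against wild type of -0.46 ± 0.10 in Lin28a loss (adjusted p = 0.00828) and -0.35 ± 0.10 in Lin28b loss (adjusted p = 0.0345), and an interaction of 0.80 ± 0.14 (adjusted p = 0.00245). Mki67, the proliferation mark Ki-67, was 0.51 ± 0.14 higher in double loss than in wild type (adjusted p = 0.0311) and 0.66 ± 0.14 higher than in Lin28a loss (adjusted p = 0.00517). Espl1, separase itself, was 0.47 ± 0.11 higher in Lin28b loss than in wild type (adjusted p = 0.0177). Nek2, a centrosome kinase, passed in double loss against Lin28b loss (0.14 ± 0.04, adjusted p = 0.0315), against Lin28a loss (0.15 ± 0.04, adjusted p = 0.0104) and in the interaction (0.17 ± 0.05, adjusted p = 0.0478), with group means between 4.40 and 4.56, near background.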

How the data were processed

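The members and gene lists were chosen with earlier results of these data known. The table used holds 1 intensity and 1 detection p-value per gene and array, deposited by the authors as exported from GenomeStudio (GSGX version 1.9.0), neither background-subtracted nor normalized, per the file headers. A gene read by several probes has 1 intensity, so probes could not be compared. The design had assumed probes. Names were brought up to date against RefSeq (GRCm38.p6): 18045 entries matched by Entrez identifier and 2073 by current symbol, 2663 were synonyms, and 8073 stayed as deposited. Another 72 per-sample columns in the deposited files were left unused.

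Each array's background, estimated from detection p-values of 21873 single-probe genes, was removed with normexp (limma 3.58.1, R 4.3.3) with an offset of 16. Values were log2-transformed and quantile normalized. Of 10372 genes that passed detection (p under 0.01 on all 3 arrays of a group), 9920 were tested after 452 duplicate entries with a dimmer signal were dropped. limma's lmFit and eBayes ran on all 12 arrays, so the groups share 1 estimate of the spread, with Benjamini-Hochberg adjustment over all tested genes in each of 8 comparisons. Rose, fell, higher, lower and passed mean an adjusted p under 0.05. Statements that groups did not overlap only describe the arrays of the gene named. The share of all tested genes without overlap is not given here. The limma fit alone was checked on values simulated for 9920 genes with known changes and noise drawn independently for each gene. Background removal, normalization and the detection filter were not part of that check. The number of arrays limits the precision.

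All members are accounted for; full values go to the up to 6 called members with the largest change per comparison and up to 2 per role against wild type, and up to 4 other mitotic genes per comparison. Role lists, the alternative settings (background, scaling, filters, arrays left out, array weights, replicate block) and figures (matplotlib 3.10.9, Python 3.11.15) used the same values.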

Additional observations from a re-analysis of the deposited data

Results flagged for a closer look

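The effect of Lin28a loss differed between cells without and with Lin28b for 7 mitotic genes, by limma's test of the interaction itself. The interaction, on the log2 scale, was 3.54 for Pttg1, 1.25 for Kif11, 1.05 for Bub3, 1.04 for Aurka, 0.59 for Kif2c, 0.47 for Incenp and 0.35 for Mad2l1. In each of the 7 genes Lin28a loss had a negative value against wild type and a positive value in double loss against Lin28b loss. With 3 arrays per group, no array was tested for standing apart from its group.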

How the results depend on the processing

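Median scaling in place of quantile normalization lowered the count of mitotic genes called in each of the 8 comparisons: 1 in Lin28a loss against wild type (6 as reported), 1 in Lin28b loss (5), 0 in double loss (11), 2 in double loss against Lin28b loss (7), 4 in double loss against Lin28a loss (14), 2 in Lin28a loss against Lin28b loss (11), 0 in the fit blocked by chip (4) and 3 for the interaction (7). It also turned the value of Fzr1 in Lin28b loss to -0.073. Cyclic loess gave 11 in double loss against Lin28b loss. Without the brightest array of Lin28a loss, double loss and wild type, 14 were called in double loss against Lin28b loss, 2 in the fit blocked by chip and 11 for the interaction. Array weights gave 9 in Lin28b loss against wild type, 15 in double loss against Lin28b loss, 15 in the fit blocked by chip and 11 for the interaction. Counts of all genes called under the alternative settings are not given here, so no change in a count is read as particular to the mitotic genes. Leaving out 1 array at a time, the counts ran from 4 to 6 in Lin28a loss against wild type, from 3 (without wild-type replicate 1, or without replicate 2 or 3 of Lin28b loss) to 6 in Lin28b loss, from 7 (without double-loss replicate 2) to 12 in double loss, from 5 to 10 in double loss against Lin28b loss, from 11 to 15 in double loss against Lin28a loss, from 9 to 11 in Lin28a loss against Lin28b loss, from 0 (without wild-type replicate 2) to 3 in the fit blocked by chip and from 5 to 9 for the interaction. The other alternatives, which were no background correction, an offset of 50, the 3 other detection filters and only the arrays compared, kept each count within 1.5 times. Of 48 values of single named genes, recomputed 1085 times, 958 kept direction and call, 126 lost the call and 1 reversed, and 13 values never lost it. The cause was not tested for any of these changes.

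Replicate numbers were not used as pairs in the main fit, and whether they pair the samples is not settled. Over 18 pairs of same-numbered samples, the correlation of deviations from the group means ran from -0.573 to 0.687 and was over 0.1 in 9. It was 0.687, 0.576 and 0.253 between wild type and double loss, and -0.396, 0.481 and -0.573 between Lin28a loss and double loss. With the replicate block, 2 genes were called in the fit blocked by chip. Against wild type it gave 5 for loss of Lin28a, 6 for loss of Lin28b and 11 for double loss, besides 8 in double loss against Lin28b loss, 15 in double loss against Lin28a loss, 11 in Lin28a loss against Lin28b loss and 6 for the interaction. The detection limit left 14 genes untested, not all of them near background, and 1 line per genotype limits every comparison.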
